A study of Mus musculus with 4 samples.

Results

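Hyaluronan is a long sugar polymer of the tissue matrix that drains from tissue into lymph. It is extruded at the cell surface by the hyaluronan synthases (Has genes), bound or taken up by receptors such as LYVE1, CD44 and the stabilins, and cut by hyaluronidases of the Hyal family and by the CEMIP proteins. LYVE1 is widely used as a marker of initial lymphatic capillaries, the blind-ended vessels that take up tissue fluid and pass it to the contractile collecting vessels, and it is also known on subsets of tissue macrophages. The genes described here are 4 receptors (Lyve1, Stab1, Stab2 and Cd44), 2 synthases (Has1 and Has2) and 4 genes of hyaluronan breakdown (Hyal1, Hyal2, Cemip and Cemip2). These 10 genes were chosen by symbol, and all 10 were found among the 32285 genes of the count matrix.

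The study measured single-cell transcriptomes of collecting lymphatic vessels dissected with the tissue around them from C57BL/6J mice of 12 to 14 weeks, 4 male and 4 female, with no treatment given in the labels. Vessels of the popliteal, inguinal-axillary, superficial cervical and mesenteric regions were pooled for each mouse and freed of their matrix with papain, collagenase and dispase. Gene expression and multiplexing-tag libraries were made for each sex, and their counts stand in 1 matrix whose barcodes carry a suffix from 1 to 8. No source used here says which mouse or sex a suffix is, so the matrix was treated as 1 sample, no test across animals was made, and values by suffix are given as lowest, median and highest.

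The matrix held 24046 barcodes and 232753017 gene UMIs (unique molecular identifiers, each standing for 1 captured transcript), with a median of 8684.5 per barcode. A suffix held 2375 to 3315 barcodes. No barcode sequence was shared among suffixes 1 to 4 or among suffixes 5 to 8, and 44 were shared across these sets. After removal of 380 barcodes by quality and 440 called doublets, 23226 cells formed 33 clusters. Of these, 29 were named from marker genes into 16 classes, and 4 clusters with 3202 cells (13.8%) stayed unnamed. The hyaluronan genes were kept out of the clustering and the naming, so their levels did not decide where a cell was placed. Levels are given as CPM, the summed UMIs of a gene per 1000000 UMIs of the same cells. They are compared here between cells for a given gene, and not between genes. Intervals are exact 95% intervals that cover counting error only, not the spread between mice.

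On build GRCm38 (GENCODE M21), the receptor genes lie at chr7:110850607-110863239 (Lyve1), chr14:31139013-31168641 (Stab1), chr10:86841198-87008025 (Stab2) and chr2:102811141-102901665 (Cd44), all on the minus strand. The synthases lie at chr17:17843323-17855205 (Has1) and chr15:56665627-56694539 (Has2), also on the minus strand. Hyal1 (chr9:107576927-107581710) and Hyal2 (chr9:107567945-107572779) are neighbours on the plus strand, Cemip2 is at chr19:21778342-21858360 on the plus strand, and Cemip is at chr7:83932857-84086502 on the minus strand.

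Among the 15 named classes with at least 50 cells, the synthases peaked in fibroblast-like cells, whereas Stab1, Hyal2 and Cemip2 peaked in lymphatic endothelial-like cells. Macrophage-like cells had 632 CPM of Lyve1. Lymphatic endothelial-like cells had 468 CPM, pooled over clusters at 3708 and 22.2 CPM that are described below. Stab1, a scavenger receptor that binds many ligands and whose affinity for hyaluronan is disputed, stood at 239 CPM among macrophage-like cells and peaked at 414 CPM among lymphatic endothelial-like cells. Cd44, the widely expressed hyaluronan receptor of leukocytes and stromal cells, peaked at 1161 CPM in dendritic-like cells among these classes. Outside them, an unnamed myeloid cluster had 1621 CPM and 21 neutrophil-like cells had 2205 CPM (1792 to 2685). Fibroblast-like cells had the most Has1 (1044 CPM) and the most Has2 (146 CPM). Hyal2, a membrane-anchored hyaluronidase, and Cemip2, a transmembrane hyaluronidase, peaked in lymphatic endothelial-like cells (103 CPM of Hyal2 and 655 CPM of Cemip2). Stab2, the endocytic hyaluronan receptor known from liver sinusoidal and some lymphatic endothelium, reached 167 CPM in innate lymphoid-like cells.

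**Figure D1:**
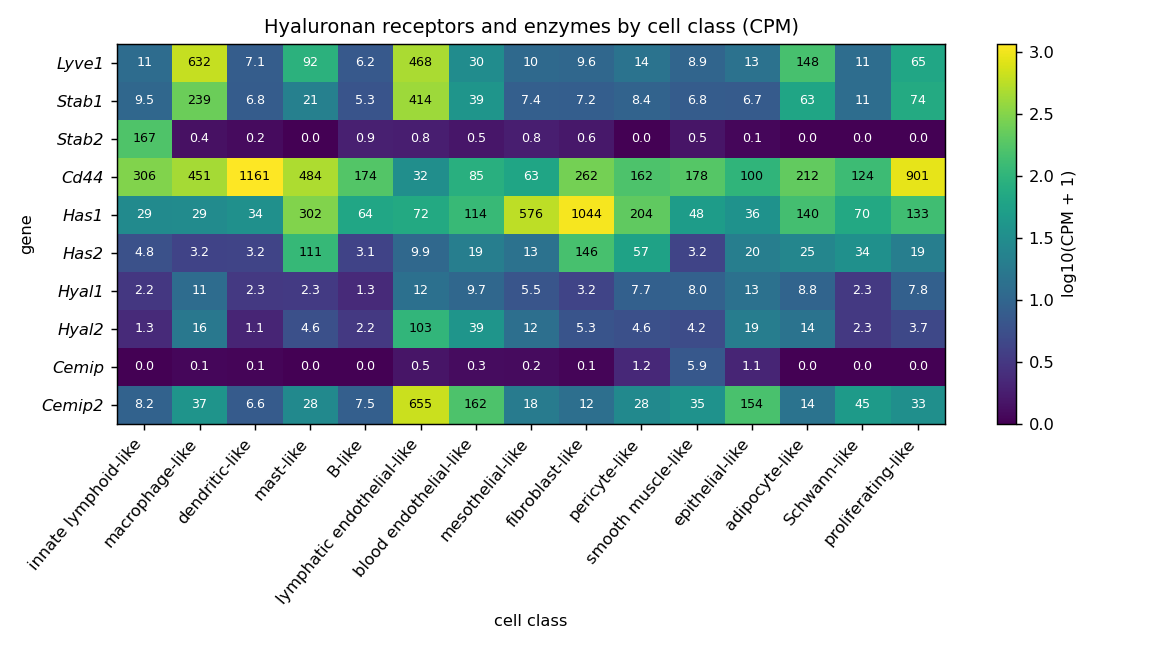
Level of each of the 10 hyaluronan genes (rows) in the 15 named classes with at least 50 cells (columns), in CPM, with the colour on a log10 scale after adding 1. Lyve1 stands out in macrophage-like (632) and lymphatic endothelial-like cells (468), Has1 in mesothelial-like (576) and fibroblast-like cells (1044), Cemip2 in lymphatic endothelial-like cells (655) and Stab2 in innate lymphoid-like cells (167).

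Lyve1 separated the lymphatic endothelial-like clusters. These were cluster 29 and cluster 14. Cluster 29 was called initial because it was led by Ccl21a and Reln and carried Piezo2. Cluster 14 was called collecting because it is the other lymphatic endothelial-like cluster and was led by Nts, Clca3a1 and Prox1. By its subset markers (Foxc2, Cldn11, Gata2 and Gja4) it met the rule for valve-type cells, and the name collecting replaced that label. Of its 596 cells, 296 held 2 or more of these markers. Prox1, the transcription factor that defines lymphatic endothelium, was at 848 CPM in the 82 initial cells and 1030 CPM in the 596 collecting cells. The valve gene Foxc2 was at 48.4 CPM in initial and 114 CPM in collecting cells. Lyve1 reached 3708 CPM (3601 to 3818) in initial cells, against 22.2 CPM (19.2 to 25.6) in collecting cells, a 167-fold difference (145 to 193). Over the suffixes its lowest, median and highest levels were 1165, 3270 and 4699 CPM in initial cells, and 0, 16.9 and 50.9 CPM in collecting cells. The groups did not overlap, and leaving out each suffix in turn gave folds of 149 to 215. The log2 ratio of 7.38 became 8.13 with a stricter cell filter and 9.06 when cells were chosen by markers one by one.

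Per cell, 80 of 82 initial cells held a Lyve1 UMI, against 50 of 596 collecting cells. The median was 40 UMIs in initial cells and 0 in collecting cells. In collecting cells the 5 highest cells carried 60.4% of all Lyve1 UMIs, and the highest single cell had 57. The share with a UMI was 97.6% in initial cells (median depth 10348 UMIs) and 8.39% in collecting cells (8191 UMIs), beside 3.77% in B-like cells (4899.5 UMIs), which are not known to make LYVE1. After each cell was thinned to 1000 UMIs these shares were 85.4%, 2.12% and 0.949%. Free RNA in the droplets was not measured, and the collecting level was 22.2 CPM beside 6.20 CPM in B-like cells. The summed level of 7 macrophage markers was 683 CPM in initial cells and 207 CPM in collecting cells, and its part in the Lyve1 levels was not tested.

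Cemip2 ran the other way. It was at 169 CPM (147 to 194) in initial cells, against 722 CPM (705 to 740) in collecting cells, 0.234 times as high (0.203 to 0.269). The lowest, median and highest suffix levels were 70.0, 176 and 208 CPM in initial cells, and 448, 613 and 1027 CPM in collecting cells, with no overlap. Hyal2 was 0.643 times as high in initial cells (69.0 CPM) as in collecting cells (107 CPM), lower in 7 of 8 suffixes, with an interval of 0.508 to 0.804. Stab1 was at 455 CPM in initial cells and 408 CPM in collecting cells, a fold of 1.11 (1.02 to 1.22). It was higher in initial cells in 4 suffixes and lower in 4, and its suffix ranges of 252 to 535 CPM in initial cells and 344 to 459 CPM in collecting cells overlapped.

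A gene was compared between groups where it reached 20 CPM in either one, and counted as different at a fold of 2. Of the 6 hyaluronan genes compared between initial and collecting cells, 2 were higher (7.89% of the 7106 genes compared were) and 1 was lower (5.87% of all). Besides Lyve1 the higher gene was Cd44, at 61.6 CPM in initial and 27.6 CPM in collecting cells, a fold of 2.23 (1.70 to 2.90). It was higher in only 3 of 8 suffixes, and without suffix 4 the fold was 1.44. Has1 had 96.9 CPM in initial and 68.4 CPM in collecting cells, and without suffix 1 it was lower in initial cells, at a fold of 0.839. B-like cells had 64.2 CPM of Has1. Stab2 had 5 UMIs in initial and 3 in collecting cells, a fold of 12.1 with an interval of 2.36 to 78.1 that rests on these few molecules, and of 2.10 to 37.5 when a suffix was left out. It was higher in initial cells in 2 suffixes and lower in 2. Without suffix 7, 1 UMI in initial and 3 in collecting cells were left, and the log2 interval ran from -4.64 to 4.71.

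**Figure D2:**
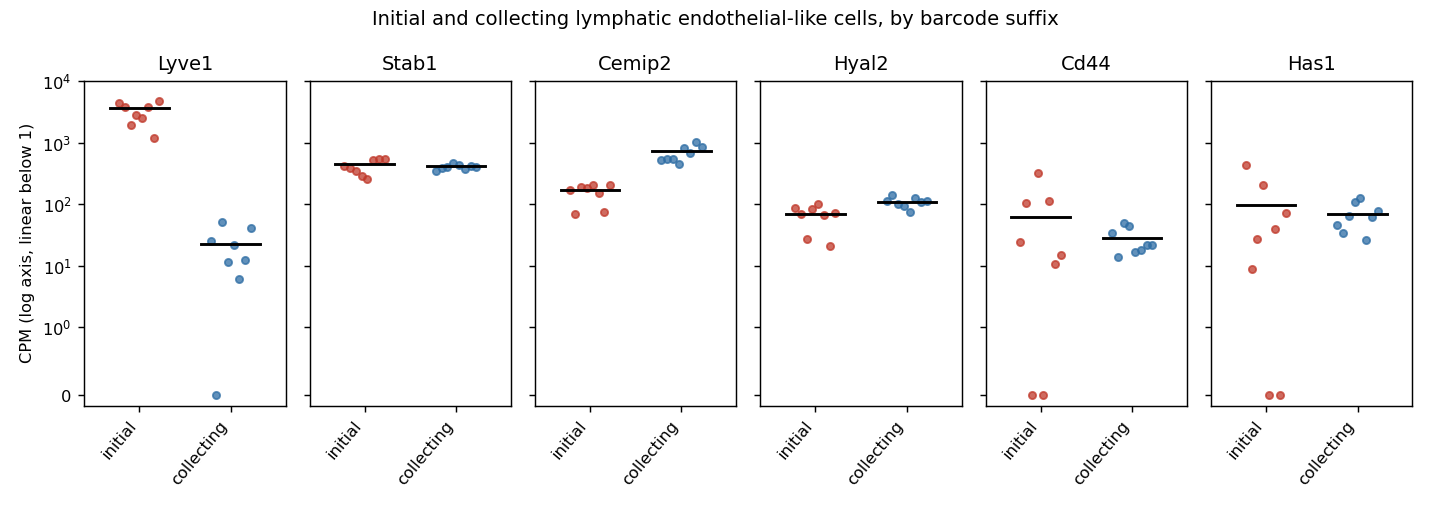
Levels of 6 hyaluronan genes in initial (left) and collecting (right) lymphatic endothelial-like cells, 1 point per barcode suffix, in CPM on an axis that is logarithmic above 1 and linear below; bars mark the level over all cells. Lyve1 in initial cells (1165 to 4699) lies above every collecting value (0 to 50.9), Cemip2 lies below (70.0 to 208 in initial cells, 448 to 1027 in collecting cells), and Stab1, Cd44 and Has1 overlap.

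Within the collecting cluster the genes were also read by valve markers (Foxc2, Cldn11, Gata2 and Gja4). Cemip2 was at 747 CPM in the 296 cells with 2 or more of these, 696 CPM in the 162 cells with 1, and 515 CPM in the 138 cells with none. Stab1 stood at 426, 318 and 404 CPM in the same order, and Hyal2 at 109, 97.1 and 107 CPM. The cells with more valve markers were deeper, with medians of 17207, 6794 and 3381.5 UMIs, and depth was not matched. Lyve1 stayed low in all of these, at 22.8, 7.59 and 45.2 CPM.

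Collecting cells also differed from the 466 blood endothelial-like cells. Stab1 was at 408 CPM in collecting cells and 38.9 CPM in blood endothelial-like cells, 10.5-fold higher (8.90 to 12.4), and Cemip2, at 722 CPM in collecting and 162 CPM in blood endothelial-like cells, was 4.47-fold higher (4.12 to 4.86). Hyal2 was 2.77-fold higher, at 107 CPM in collecting and 38.7 CPM in blood endothelial-like cells. Each of these was higher in 8 of 8 suffixes. Cd44 was lower in 8 of 8, at 27.6 CPM in collecting and 84.9 CPM in blood endothelial-like cells, a fold of 0.325. In this comparison 3 of 6 hyaluronan genes were higher (8.38% of all genes) and 1 was lower (11.6%). Lyve1 was low in both, at 22.2 CPM in collecting and 30.3 CPM in blood endothelial-like cells, and its fold of 0.733 became 1.17 without suffix 7.

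Named macrophage-like cells held 18495 of the 37006 Lyve1 UMIs. This leaves out an unnamed cluster led by Spic and Fcna in which all 7 macrophage markers were 2-fold up. These summed to 12339 CPM there and 12363 CPM in the Cd209-type cluster. With it counted, macrophage-like cells outside the Cd209-type cluster had 16866 Lyve1 UMIs in place of 5236. The 3 myeloid clusters with the most Lyve1 had the lowest Cd44 levels of 7 myeloid clusters. Lyve1 was at 759 CPM in the Cd209-type cluster (2948 cells, led by Cd209b and Cd209d) and 689 CPM in an interferon-response cluster. The Spic and Fcna cluster had 824 CPM. The cluster called Lyz1 and Ear2 (916 cells) had 242 CPM, and an unnamed cluster led by Lyz1 and Dcstamp had 8.14 CPM. The Lyz1 and Ear2 cluster has its name from the subset markers Lyz1 (287 CPM), Ear2 (23.8 CPM) and Ccr2 (430 CPM), while its leading genes were Mucl1, Ccl4 and Mmp13, and the unnamed Lyz1 and Dcstamp cluster had more of all 3 markers. The dendritic-like clusters had 6.41 and 7.98 CPM. Cd44 in the same clusters was at 242, 238, 403, 1192 and 1621 CPM, with 1125 and 1207 CPM in the dendritic-like clusters. Stab1 went with Lyve1, at 278, 229, 305, 144 and 12.2 CPM, with 7.38 and 6.04 CPM in the dendritic-like clusters.

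Set against the Lyz1 and Ear2 cluster, the Cd209-type cluster had 3.13-fold more Lyve1 (2.97 to 3.31). Its suffix levels ran from 545 through a median of 756 to 907 CPM, while the Lyz1 and Ear2 cluster ran from 57.8 through 189 to 582 CPM. Lyve1 was higher in the Cd209-type cluster in 8 of 8 suffixes, although the ranges overlapped slightly. Cd44 was 0.203 times as high (0.195 to 0.211), with suffix levels of 187 to 383 CPM in Cd209-type cells and 946 to 1446 CPM in Lyz1 and Ear2 cells, which did not overlap. Stab1 was 1.93-fold higher, also in 8 of 8 suffixes. Of 5 hyaluronan genes compared, 1 was higher (5.50% of all genes) and 1 lower (6.25%). Set against all other macrophage-like cells, the Cd209-type cluster had Lyve1 at 759 and the others at 444 CPM, a fold of 1.71 (1.66 to 1.77). On the log2 scale this was 0.77. It was 1.83 when cells were chosen by markers one by one, 0.29 with a stricter cell filter, 0.30 with the doublet rule tried first and 0.22 when the Spic and Fcna cluster was counted as macrophage-like. There 0 of 5 genes were higher (0.820% of all genes) and Cd44, at a fold of 0.317, was the 1 lower (4.08%).

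Lyve1 and Stab1 were often found in the same macrophage. In Cd209-type cells, 71.3% of those with a Lyve1 UMI also held a Stab1 UMI, against 45.7% of those without. In Lyz1 and Ear2 cells the shares were 70.4% and 31.7%. Within the Cd209-type cluster, Cd44 was found in 55.8% of cells with a Lyve1 UMI and 44.4% of those without. Deeper cells detect both genes of a pair more easily, and the shares were not matched for depth.

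**Figure D3:**
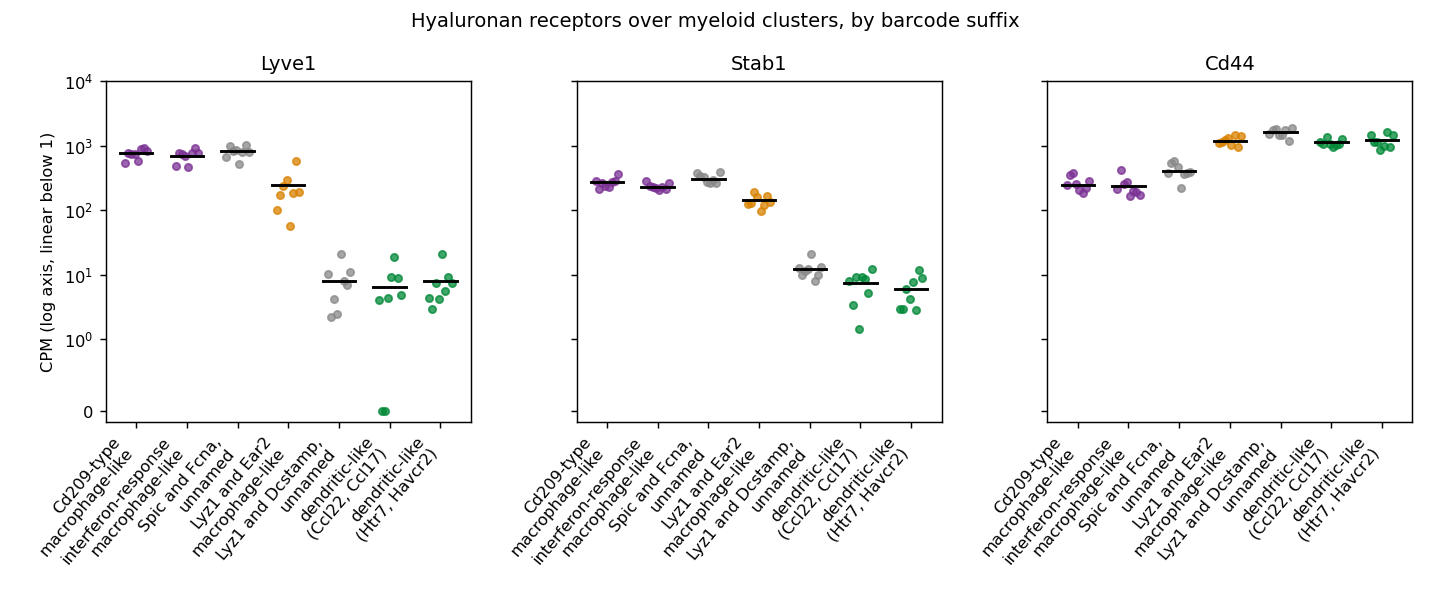
Lyve1, Stab1 and Cd44 in 7 myeloid clusters, 1 point per barcode suffix, in CPM on an axis that is logarithmic above 1 and linear below; bars mark the level over all cells and grey clusters are unnamed. Lyve1 and Stab1 are high in the 3 clusters on the left and low in the 3 on the right, while Cd44 is at 238 to 403 on the left and at 1125 to 1621 on the right.

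Macrophage-like and lymphatic endothelial-like cells both had Stab1 and differed in Cd44, Hyal2 and Cemip2, while Lyve1 differed within the lymphatic class. Lyve1 was 1.35-fold higher in macrophage-like cells (632 CPM) than in lymphatic endothelial-like cells (468 CPM), in 5 of 8 suffixes. The lymphatic value pools initial cells at 3708 CPM, above the macrophage-like level, with collecting cells at 22.2 CPM, below it. The fold was 1.07 without suffix 7 and 2.03 without suffix 8, and the lymphatic level ran from 70.6 to 1120 CPM over the suffixes, where the number of initial cells ran from 4 to 29. Stab1 was lower in macrophage-like cells in 8 of 8 suffixes, at 239 CPM in macrophage-like against 414 CPM in lymphatic cells, a fold of 0.578 (0.556 to 0.601). Cd44 was 14.2-fold higher in macrophage-like cells (12.7 to 15.9), which had 451 CPM where the lymphatic class had 31.7 CPM. Its log2 ratio of 3.83 became 5.19 when cells were chosen by markers one by one. With the Spic and Fcna cluster counted as macrophage-like, the folds were 0.630 for Stab1 and 13.7 for Cd44. Hyal2 and Cemip2 were at 0.153 and 0.057 times the lymphatic level in macrophage-like cells, lower in 8 of 8 suffixes each. Of 6 genes compared 1 was higher (20.8% of all genes) and 3 were lower (22.8%), the third being Has1, for which macrophage-like cells had 28.8 CPM, lymphatic endothelial-like cells 71.8 CPM and B-like cells 64.2 CPM.

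The synthases were stromal. Has1 is shown with its promoter because mesothelial-like and fibroblast-like cells held 9494 and 103637 of its 118970 UMIs, and because the window holds a motif that few promoters hold. The sequence is from RefSeq on build GRCm38.p6, chr17:17855189-17855438 on the minus strand, the 250 bases before the gene's RefSeq start written 5′ to 3′, with capitals for the cyclic AMP response element TGACGTCA.
Has1 promoter: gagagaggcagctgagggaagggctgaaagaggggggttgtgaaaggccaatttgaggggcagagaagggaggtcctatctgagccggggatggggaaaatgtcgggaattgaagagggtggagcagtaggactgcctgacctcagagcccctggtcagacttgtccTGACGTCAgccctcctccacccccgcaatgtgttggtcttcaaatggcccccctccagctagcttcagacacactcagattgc
The RefSeq start lies inside the GENCODE gene given above, so the last bases of the window are the first bases of that gene. The capitals begin 83 bases before the RefSeq start. The element reads the same on both strands and was found in 508 of 32851 promoter windows of this length (1.55%). Its shorter core TGACG, which lies inside it on each strand, was found in 17.8% of windows, and CCACCC, present 134 and 67 bases before the start, in 28.1%. TATAAA (12.4% of windows), GGAAGT (19.7%), AGATAA (9.99%), GGGCGG (32.7%), TGACTCA (4.46%) and the NF-kappaB consensus (0.140%) were searched on both strands and are not in this window. A motif match is a description of the sequence only. The table held promoters for 7 of the 10 genes, without Lyve1, Has2 and Cemip2.

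Has1 was at 576 CPM (564 to 587) in the 1059 mesothelial-like cells, the lining cells of serous surfaces, and at 1044 CPM (1037 to 1050) in the 8751 fibroblast-like cells. It was 0.552 times as high in mesothelial-like cells (0.540 to 0.563), and lower in 8 of 8 suffixes. The lowest, median and highest suffix levels were 334, 499 and 806 CPM in mesothelial-like cells, and 823, 1080 and 1246 CPM in fibroblast-like cells, with no overlap. This holds for the pooled fibroblast-like class, and not for its Tspan11 and Pax1 cluster, whose level was below the mesothelial-like one. A UMI was found in 72.8% of mesothelial-like cells (median depth 13902 UMIs) and 74.5% of fibroblast-like cells (11123 UMIs), beside 12.9% of B-like cells (4899.5 UMIs). Thinned to 1000 UMIs, the shares were 33.9%, 42.8% and 3.16%. The 6 fibroblast markers summed to 18482 CPM in the mesothelial-like cluster, and their part in its Has1 level was not tested.

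Has2, the synthase needed for heart development in mice, was more restricted, with 218 UMIs in mesothelial-like and 14507 in fibroblast-like cells of 15688 in all. It was at 13.2 CPM in mesothelial-like cells, against 146 CPM in fibroblast-like cells, 0.090 times as high (0.079 to 0.103). Suffix levels ran from 6.24 through 8.65 to 27.3 CPM in mesothelial-like cells, and from 123 through 149 to 170 CPM in the pooled fibroblast-like cells, with no overlap. The thinned share was 0.477% in mesothelial-like cells, 11.4% in fibroblast-like cells and 0.633% in B-like cells, and no order was read between the first and the last, since B-like cells had the lower level (3.10 CPM). The log2 ratio of -3.47 became -5.18 when cells were chosen by markers one by one. Cd44 was also lower in mesothelial-like cells, at 62.5 CPM against 262 CPM in fibroblast-like cells. Of 3 genes compared, 0 were higher (13.6% of all genes) and 2 lower (11.9%).

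Among the 7 fibroblast-like clusters, Has2 varied more than Has1. Has2 was highest in the Col8a1 and Adamts16 cluster (243 CPM) and in the Pi16 and Dpp4 clusters 3 and 15 (236 and 207 CPM), and lowest in the Tspan11 and Pax1 cluster (31.7 CPM). Its suffix ranges were 202 to 277 CPM in the Col8a1 cluster and 8.08 to 50.5 CPM in the Tspan11 cluster, with no overlap. Has1 ran from 533 CPM in the Tspan11 and Pax1 cluster to 1278 CPM in the Tcf21, Asb4 and Rspo3 cluster. The Tspan11 and Pax1 level was below the 576 CPM of mesothelial-like cells. Over all fibroblast-like cells, Has2 was detected in 52.4% of cells with a Has1 UMI and 28.7% of cells without, not matched for depth. Has2 and its antisense transcript Has2os overlap on opposite strands in the annotation and were counted as separate genes. No strand setting is stated, and whether reads of one were counted for the other was not tested. Mast-like cells also stood out, with 302 CPM of Has1 and 111 CPM of Has2, which were 179 and 70.4 CPM without suffix 8. They were shallow (median 1233 UMIs), 9.34% of them held a Has1 UMI, their 6 fibroblast markers summed to 4179 CPM, and the part of these in the levels was not tested.

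Lyve1 was low in fibroblast-like clusters, at 29.0 CPM in the Tcf21, Asb4 and Rspo3 cluster and 2.05 to 14.6 CPM in the other 6. The 7 macrophage markers summed to 514 CPM in the Tcf21, Asb4 and Rspo3 cluster, and their part was not tested.

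**Figure D4:**
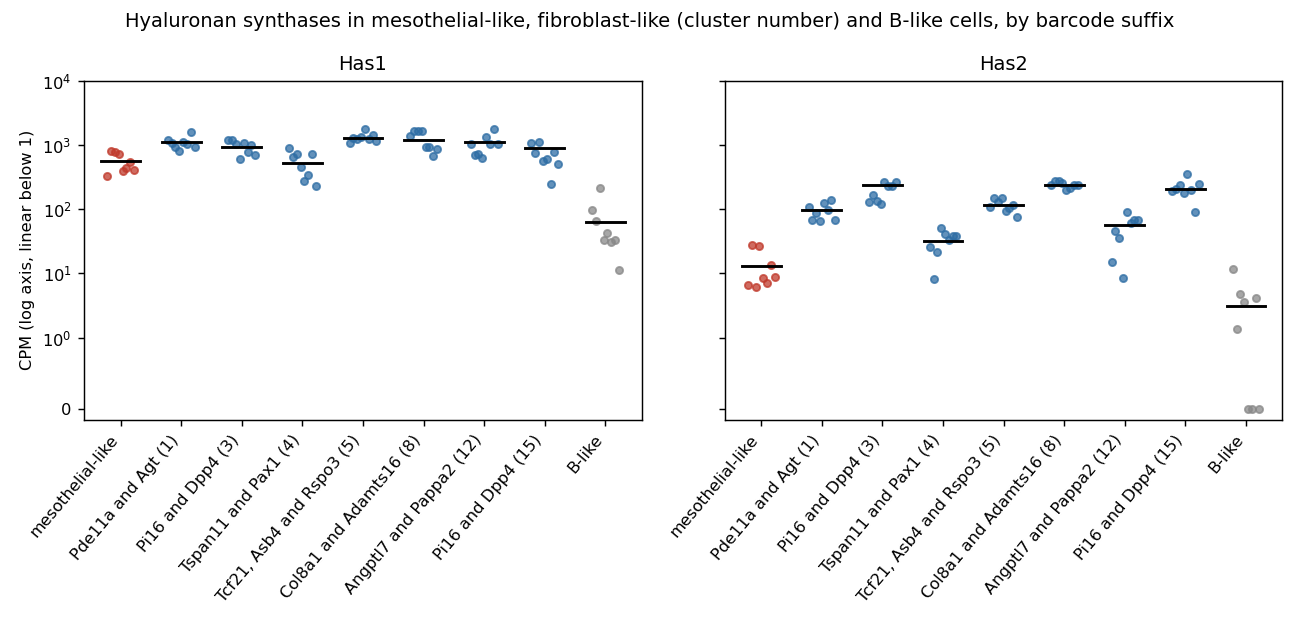
Has1 and Has2 in mesothelial-like cells, the 7 fibroblast-like clusters (number in parentheses) and B-like cells, 1 point per barcode suffix, in CPM on an axis that is logarithmic above 1 and linear below; bars mark the level over all cells. Mesothelial-like Has1 (334 to 806) lies above B-like cells (11.4 to 213), while mesothelial-like Has2 points (6.24 to 27.3) lie below the bar of every fibroblast-like cluster (31.7 or more). The range of these Has2 points overlaps that of the Tspan11 and Pax1 points.

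Other genes that supply and organise hyaluronan were also read across the classes. Of the 13567 genes that reached 10 CPM in a class, 3.55% were highest in fibroblast-like cells. Of 8 synthesis and precursor genes, 7 reached 10 CPM in a class, and 6 of them were highest in fibroblast-like cells. These included Ugdh, which makes the UDP-glucuronic acid building block (1245 CPM), Gfpt2, which opens the hexosamine pathway (1391 CPM), and Uap1, which makes UDP-N-acetylglucosamine (709 CPM). Among the fibroblast-like clusters, Ugdh was highest in Pi16 and Dpp4 cluster 3 (2463 CPM) and the Col8a1 cluster (2295 CPM) and lowest in the Tspan11 cluster (229 CPM), the clusters with the most and the least Has2. Of 18 matrix and cross-linking genes, 7 reached 10 CPM, and fibroblast-like cells had the most of 4 of these. They were Tnfaip6, which transfers heavy chains onto hyaluronan (4062 CPM), the pentraxin Ptx3 (619 CPM), the heavy chain gene Itih5 (313 CPM) and the large proteoglycan Vcan (295 CPM). Set against fibroblast-like cells, mesothelial-like cells had 10 of 17 compared genes of the synthesis, matrix, further receptor and further breakdown lists lower (11.9% of all genes) and 0 higher (13.6%).

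Lymphatic endothelial-like and fibroblast-like cells differed in every hyaluronan gene compared. Of 7 compared, 4 were higher (19.0% of all genes) and 3 lower (14.3%). Lyve1 was 48.6-fold, Stab1 57.5-fold, Hyal2 19.2-fold and Cemip2 54.6-fold higher in the lymphatic class, each in 8 of 8 suffixes. Cd44, Has1 and Has2 were at 0.121, 0.069 and 0.068 times the fibroblast-like level. The Lyve1 fold ran from 32.2 to 70.5 when a suffix was left out. It pools initial cells (3708 CPM) with collecting cells (22.2 CPM), beside 9.63 CPM in fibroblast-like cells. Of 18 other list genes compared, 11 were lower in lymphatic endothelial-like cells (14.3% of all genes) and 1 was higher (19.0%). This was Itih2, which encodes a heavy chain that becomes bound to hyaluronan, at a fold of 24.0. Itih2 was at 3.28 CPM in initial and 28.1 CPM in collecting cells, while Itih5 was at 72.3 CPM in initial and 23.9 CPM in collecting cells.

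Hyal1 and Cemip were at 13.0 CPM or less in every named class. Hyal1, the lysosomal hyaluronidase, had a CPM of 13.0 in epithelial-like cells, 11.04 in macrophage-like cells and 12.4 in lymphatic endothelial-like cells, and these 3 intervals overlap. Its reads may also be shared with Hyal3 and Naa80, which overlap it on the same strand. Cemip, a hyaluronan-binding protein needed for depolymerisation in skin fibroblasts, had 114 UMIs in all cells, 72 of them in smooth muscle-like cells (5.91 CPM). Cemip2 thinned shares were 32.2% in lymphatic endothelial-like and 0.316% in B-like cells, and those of Hyal2 were 9.12% and 0%. Among further breakdown genes, the lysosomal enzymes Hexa (514 CPM) and Gusb (105 CPM) were highest in macrophage-like cells. All 4 further receptors passed 10 CPM. Tlr2 and Tlr4, innate immune receptors reported to sense hyaluronan fragments, had 214 and 94.2 CPM in macrophage-like cells, whereas lymphatic endothelial-like cells had 15.9 and 9.52 CPM. Hmmr, a mitotic spindle protein that also binds hyaluronan, peaked in proliferating-like cells (141 CPM), and Layn was at 36.2 CPM in Schwann-like and 34.8 CPM in fibroblast-like cells.

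The smooth muscle-like clusters differed in Cd44. Cluster 7 (led by H2-M9 and Actc1) had 227 CPM and cluster 20 (led by Pln and Xirp1) had 19.9 CPM, a fold of 11.4 (8.80 to 15.1). Suffix levels ran from 193 to 268 CPM in cluster 7 and 3.30 to 38.1 CPM in cluster 20, with no overlap. Of 3 genes compared, 2 were higher (13.7% of all genes) and 0 lower (9.15%). Besides Cd44 this was Has1, whose 56.5 CPM (cluster 7) and 20.9 CPM (cluster 20) were both under the B-like level. Tnfaip6 was 8.73-fold higher in cluster 7 (494 CPM in cluster 7 and 56.6 CPM in cluster 20), whereas cluster 7 had 33.0 CPM of Itih5 and cluster 20 had 242 CPM. B-like cells had 220 CPM of Tnfaip6. The 6 fibroblast markers summed to 1873 CPM in cluster 7 and 551 CPM in cluster 20, and their part in these levels was not tested. Cemip had 67 UMIs in cluster 7 (7.22 CPM) and 5 in cluster 20 (1.71 CPM), a fold of 4.21 (1.72 to 13.4). Both levels were under 20 CPM, so it was not among the genes compared.

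Most Stab2 UMIs lay in the 393 innate lymphoid-like cells, a cluster led by Il5 and Dach2. Stab2 was at 167 CPM (151 to 185) there and 0.584 CPM in all other cells, 287-fold higher (235 to 353), with 387 of the 517 Stab2 UMIs. By suffix the level was 344, 275, 103, 131, 26.6, 4.54, 143 and 106 CPM for suffixes 1 to 8, higher than the other cells in each, and 225-fold higher without suffix 1. A UMI was found in 85 of 393 cells, of which 55 held 2 or more and the highest held 21. The share was 21.6% in innate lymphoid-like cells (median depth 5387 UMIs) and 0.629% in B-like cells (4899.5 UMIs), and after thinning it was 10.5% in innate lymphoid-like and 0% in B-like cells. Prox1 was seen in 0 of 85 Stab2-positive cells and 2 of the 308 others of this cluster, and Gata3, the transcription factor of type 2 lymphocytes, in 94.1% of Stab2-positive cells and 95.5% of the others. Of 7 hyaluronan genes compared, 1 was higher (13.4% of all genes) and 5 were lower (31.3%). Stab2 overlaps Gm16268, Gm16271 and Gm16280 on the other strand, which were counted as separate genes. No strand setting is stated, and whether reads of these genes were counted for Stab2 was not tested.

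**Figure D5:**
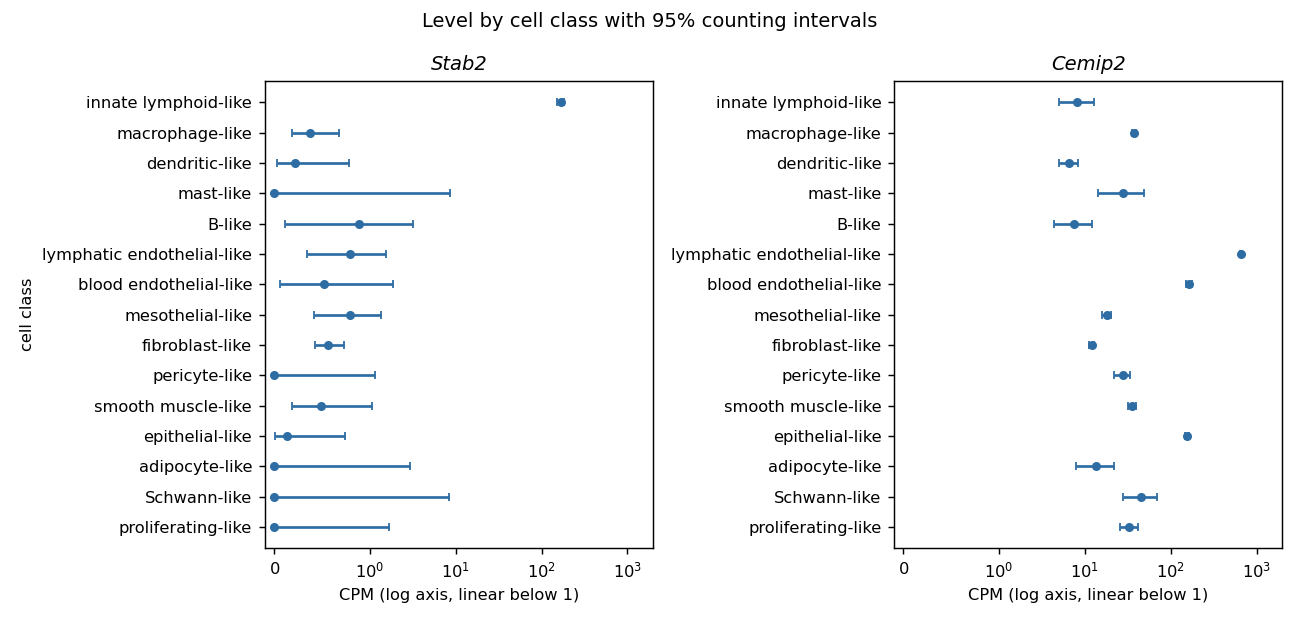
Stab2 and Cemip2 in each named class with at least 50 cells, in CPM with exact 95% counting intervals, on an axis that is logarithmic above 1 and linear below. Stab2 is at 167 in innate lymphoid-like cells and at most 0.885 elsewhere; Cemip2 is highest in lymphatic endothelial-like cells (655), then in blood endothelial-like (162) and epithelial-like cells (154), whose intervals overlap.

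Across the 33 clusters, Has1 and Has2 had a correlation of log levels of 0.815, Lyve1 and Stab1 of 0.797, Hyal2 and Cemip2 of 0.705, and Cd44 and Cemip2 of -0.567. These are descriptions over clusters that share libraries and differ in depth. The genes most like Lyve1 were Ltc4s (0.888), Npl (0.865) and Cd209f (0.860), and those most like Stab1 were Ednrb (0.909), C5ar2 (0.858) and Gm10790 (0.844). Has2 was followed most closely by Scara5 (0.942), Arhgap20 (0.928) and Has2os (0.927), and Has1 by Clec3b (0.925), Aox3 (0.922) and Ces2g (0.916). Cemip2 was closest to Unc13b (0.821), Clca3a1 (0.804) and Mall (0.792), and Hyal2 to F8 (0.805), Lrrc8a (0.795) and Slc16a13 (0.781). The genes nearest to Cd44 were Apbb1ip (0.827), Gpr35 (0.802) and Bcl2a1a (0.789), those nearest to Stab2 were Olfr1259 (0.929), Ccr8 (0.925) and Cntn1 (0.922), and those nearest to Hyal1 were Jade3 (0.823), Cracr2b (0.815) and Tbc1d16 (0.788).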

How the data were processed

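Single-cell RNA was measured in vessels of 4 male and 4 female mice. The deposited values are raw UMI counts per gene and barcode, and their headers name Cell Ranger 7.1.0. Build mm10 and Seurat 4.3.0.1 are named in the submitters' processing notes. The role of Seurat, the annotation and the strand setting are not given in the sources used here. Barcodes under 500 UMIs or 300 genes, or at 15% or more mitochondrial UMIs, were removed. Doublets were scored against simulated ones within suffixes 1 to 4 and 5 to 8. The first threshold rule called only 5 of 10719 barcodes (0.0466%) in 1 set, so Otsu's threshold replaced it after this was seen (440 doublets, 1.86%). Counts were scaled to 10000, and 2000 variable genes without the hyaluronan lists gave 30 components, 15 neighbours and Leiden clusters at resolution 1.0 (leidenalg 0.10.2, Python 3.11.15, scipy 1.17.1). A cluster took a class name where at least 3 of its markers were 2-fold up and no other class led its top 10 genes. A cluster led by Spic and Fcna therefore stayed unnamed, although all 7 macrophage markers were 2-fold up in it. Neutrophil-like cells (21) are described only for Cd44.

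Levels are CPM of summed counts with exact Poisson 95% intervals, ratios have exact conditional binomial intervals, and shares were also taken after thinning cells to 1000 UMIs. With 1 sample there is no test. Ratios were checked on simulated counts for initial over collecting cells (6401 genes), where 4-fold genes came back at a median of 3.89. These counts held counting error only, without spread between cells or suffixes. They check the calculation, and cannot show how the intervals hold in the real counts. The 2-fold rule counted 56% of genes set at a fold of 2 and 64% of those set at 0.5 as different. The interval held the true fold for 90% of genes set at a fold of 0.25, 98% at 0.5, 92% at 2 and 96% at 4. The members and lists were chosen with earlier results of these data known. A gene of the breakdown list is not reported here. All members were described in every named class with at least 50 cells, and for each member at 10 CPM the 3 genes with the highest correlation were named. The subset rule, the label collecting, the valve gate, the per-cell readings and the comparisons with the Lyz1 and Ear2 cluster, blood endothelial-like cells, between smooth muscle-like clusters and of innate lymphoid-like cells were set after levels were seen. Gene positions and overlaps are from GENCODE M21 (GRCm38), and promoters from RefSeq. The alternatives were other filters, doublets kept, another resolution, another naming rule, a marker gate per cell, a mean over cells and parts of the suffixes.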

Additional observations from a re-analysis of the deposited data

How the results depend on the processing

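The 8 main ratios, on the log2 scale, kept their direction under the alternatives run. Of 73 values, 40 moved by less than their counting interval, 33 moved by more and 0 reversed. The 40 include a naming of clusters by mean log2 fold, under which all 8 ratios rested on the same cells and could not move. Other alternatives also left little room to move. Stab2 rested on 5 and 3 UMIs again with the stricter cell filter, doublets kept, resolution 2.0 and the doublet rule tried first. Lyve1 rested on the same 4516 UMIs of initial cells with doublets kept, resolution 2.0 and the doublet rule tried first. The main values were 7.38 for Lyve1 (initial over collecting), 0.77 for Lyve1 (Cd209-type over other macrophage-like), -0.79 for Stab1 and 3.83 for Cd44 (macrophage-like over lymphatic endothelial-like), 3.60 for Stab2 (initial over collecting), -0.86 for Has1 and -3.47 for Has2 (mesothelial-like over fibroblast-like), and 5.77 for Cemip2 (lymphatic endothelial-like over fibroblast-like). A stricter cell filter gave 8.13 for Lyve1 in lymphatic cells, 0.29 for Lyve1 in macrophages and -0.66 for Stab1. Keeping doublets gave -0.59 for Stab1 and 3.40 for Cd44. Resolution 2.0 gave 0.71 for Lyve1 in macrophages. The marker gate per cell gave 9.06 and 1.83 for Lyve1 in lymphatic cells and macrophages, -0.94 for Stab1, 5.19 for Cd44, -0.80 for Has1, -5.18 for Has2 and 5.29 for Cemip2. The mean over cells gave 7.63 and 0.89 for Lyve1, -0.81 for Has1 and 5.87 for Cemip2. Choices added after seeing the data were these. The doublet rule tried first gave 0.30 for Lyve1 in macrophages, -0.66 for Stab1 and 3.66 for Cd44. Counting the Spic and Fcna cluster as macrophage-like gave 0.22 for Lyve1 and -0.67 for Stab1. Suffixes 1 to 4 alone gave 7.09 and 0.64 for Lyve1, -0.91 for Stab1, 3.62 for Cd44, -0.66 for Has1, -3.00 for Has2 and 5.30 for Cemip2, and suffixes 5 to 8 alone gave 4.15 for Cd44, -1.13 for Has1, -4.03 for Has2 and 6.01 for Cemip2. Leaving out each suffix in turn gave 7.22 to 7.75 for Lyve1 in lymphatic cells, 0.72 to 0.85 for Lyve1 in macrophages, -0.87 to -0.74 for Stab1, 1.07 to 5.23 for Stab2, 3.69 to 4.06 for Cd44, -0.95 to -0.77 for Has1, -3.81 to -3.32 for Has2 and 5.62 to 5.87 for Cemip2. The cause was not tested in any of these. With doublets kept no Cd209-type value could be had, and suffixes 1 to 4 gave none for Stab2. No paired analysis was possible because the barcodes carry no replicate number from the labels. The lymphatic ratios rest on 82 initial cells, and that of Stab2 on 8 UMIs.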

Other observations

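Cemip2 separated the epithelial-like clusters. Cluster 26, led by Wfdc2 and Ido1, had 192 CPM of Cemip2 and 3.92 CPM of Has2. Cluster 25, led by Krt17 and Krt15, had 70.5 CPM of Cemip2 and 53.6 CPM of Has2.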
